A study of Mus musculus with 6 samples.

Results

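The genes described here build, fill and cut the extracellular matrix of the mouse colon. They are the collagen chains, the laminin chains, the matrix metalloproteinases (Mmp), the ADAMTS proteases, the tissue inhibitors of metalloproteinases (Timp), and 6 single genes, namely fibronectin (Fn1), Sparc, elastin (Eln), Tgfbi, vimentin (Vim) and Ccn3 (older name Nov). Members were chosen by symbol from the platform annotation, using only probe sets that name 1 gene. This gave 95 genes of 18194 genes so named, read by 187 of 45037 probe sets. The set holds 42 collagen chains, 10 laminin chains, 18 Mmp genes, 15 Adamts genes, 4 Timp genes and the 6 single genes. Fbn1 was not analysed here. Each gene was represented by the probe set with the highest mean signal over all arrays.

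Affymetrix MOE430 2.0 arrays measured total RNA from dissected whole colon, so epithelium, connective tissue and muscle layers are mixed in each sample. Wild-type colon (NHE3+/+) was on 3 arrays, and 3 carried colon lacking NHE3 (NHE3-/-), the sodium-proton exchanger of the absorptive epithelium that Slc9a3 encodes. The mice were littermates aged 6 to 8 weeks and received no treatment. No source used here gives the kind of Slc9a3 allele, the sex of the mice or the number of mice behind an array. P-values therefore rest on how much these arrays vary, and that variation may be technical. The comparison asks which matrix genes differ in the colon of mice without the exchanger.

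Fibrillar collagens carry the tensile load of the gut wall, and type VI collagen forms microfilaments around cells. Type IV collagen and laminins are the networks of the basement membrane on which the epithelium, vessels and muscle sit. Metalloproteinases and ADAMTS enzymes cut matrix proteins and release growth factors bound to them, and the Timp proteins block these enzymes. Matricellular proteins such as Ccn3, Tgfbi and Sparc are secreted into the matrix and act on cells rather than bearing load.

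Both groups had deposited signals scaled to a trimmed mean of 500 per array, and array medians ran from 97.8 to 121.4. Correlations of log2 values were 0.969 to 0.970 within NHE3+/+, 0.965 to 0.973 within NHE3-/- and 0.932 to 0.959 between the groups. The Slc9a3 probe set with the highest signal read 5908, 5647 and 6669 in NHE3+/+ and 5970, 4266 and 3665 in NHE3-/-, groups that overlap (log2 fold change -0.42, limma, adjusted p = 0.120). Another tested Slc9a3 probe set went the other way, at 346, 345 and 108 in NHE3+/+ and 473, 609 and 265 in NHE3-/- (0.76, limma, adjusted p = 0.230). Where these probes lie relative to the disrupted part is not given, so this does not check the genotype labels. Xist, a transcript of the inactive X chromosome, read 4.3, 8 and 2 in NHE3+/+ and 2639, 1929 and 12.3 in NHE3-/-. On this reading NHE3-/- replicates 1 and 2 stand apart from the other arrays. The Y-linked Eif2s3y read 933 to 1355 in NHE3-/- and 1434 to 1809 in NHE3+/+, so those 2 arrays read both Xist and a Y-linked gene. The sex of the mice may therefore differ between the groups, and on these 2 arrays it cannot be told apart from genotype. Of 14 colon epithelium markers all 14 passed the filter on low signal, as did 7 of 10 smooth muscle markers and 9 of 10 fibroblast markers. Among pancreas markers 4 of 8 were tested and 1, Clps, fell, with a list sum of 7184 to 9945 in NHE3+/+ and 5307 to 5891 in NHE3-/-. Among the epithelial markers 3 rose and 2 fell, and no smooth muscle, neural, glial or mesothelial marker tested was called (12 in all, 1 with an unadjusted p under 0.05). No value in the table was 0; the lowest was 0.1.

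None of the 26 collagen and 6 laminin chains tested passed the test, and 6 other members did. Of the 95 genes, 56 passed the filter on low signal and were tested, and 6 of the 56 (10.7%) had an adjusted p under 0.05 in limma's moderated test, adjusted by Benjamini-Hochberg over all 27024 probe sets tested. Over all genes with 1 probe set each the share was 14.0% (6.42% higher and 7.55% lower in NHE3-/-), and over all probe sets 11.2%, with 1342 higher (4.97%) and 1685 lower (6.24%). The share of matrix genes called was thus no larger than that of all genes. The 6 single genes, picked with earlier results of these data known, supplied 3 of the 6 calls. Tgfbi and Mmp7 were higher in NHE3-/- colon, and Ccn3, Vim, Timp2 and Adamts15 were lower. The median log2 fold change of the 56 was -0.08, beside -0.07 over all genes tested.

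Scaling of the arrays bears on these directions. With array medians set equal, the median over all probe sets tested moved from -0.10 to 0.01 and the calls over all probe sets became 1595 higher and 738 lower; with quantile normalization they were 1338 higher and 1332 lower. The median of the 56 matrix genes was then 0.01 and 0.04. No member's estimate past the threshold changed direction under either scaling. In whole tissue, fewer cells of a type and less RNA per cell cannot be told apart, and this holds for every difference below.

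The 3 arrays of NHE3-/- lay entirely above or entirely below the 3 of NHE3+/+ for 14 of the 56 genes, 6 higher and 8 lower, against 36.8% of all genes tested (14.8% higher and 22.0% lower). The other single genes held 4 of these 14, the collagens 4, Mmp 2, Timp 2, and the laminins and Adamts 1 each.

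**Figure D1:**
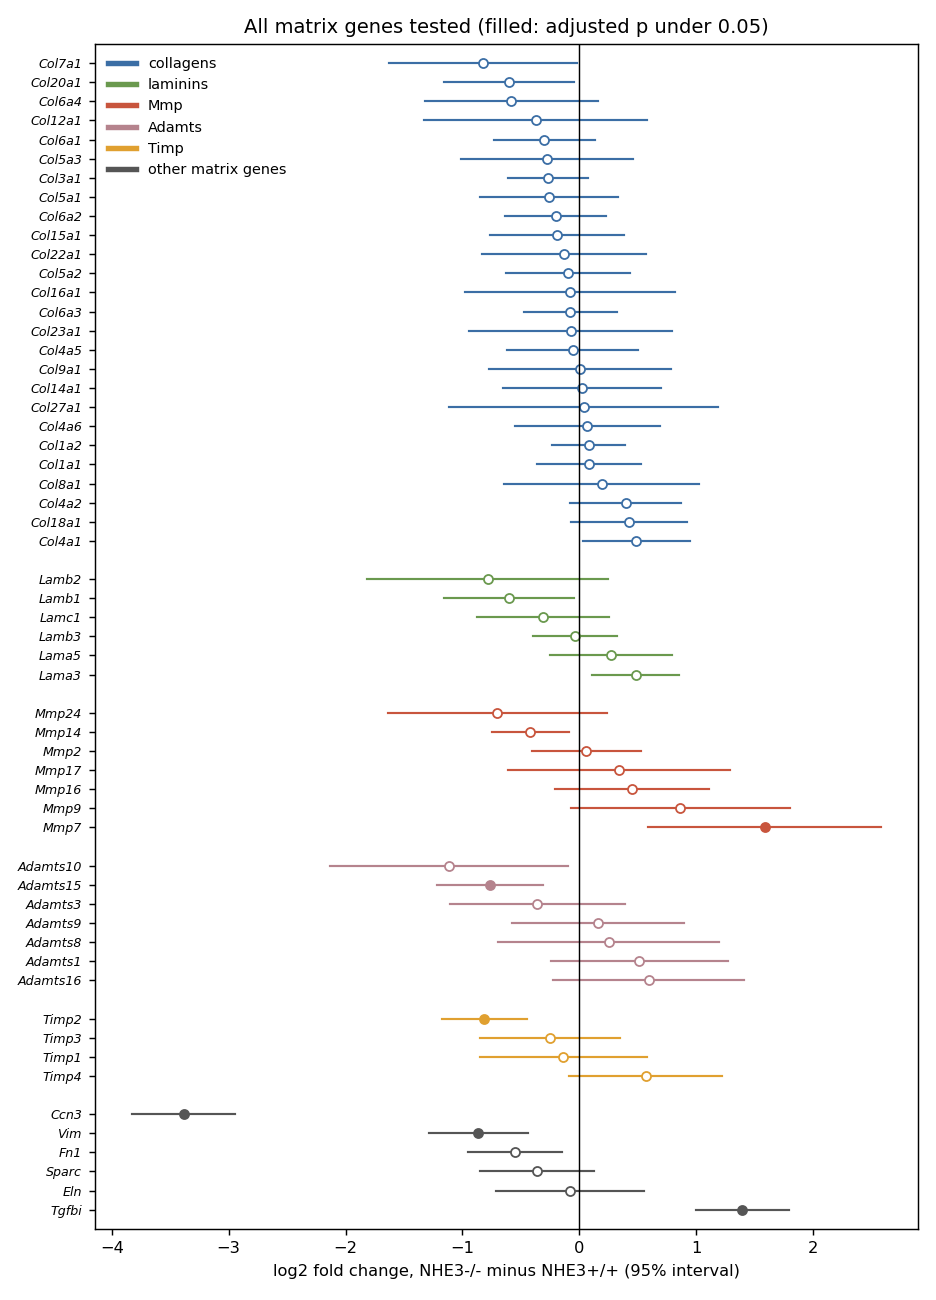
The log2 fold change (NHE3-/- minus NHE3+/+, horizontal axis) of each of the 56 matrix genes tested, with its 95% interval, by family in colour; filled points have an adjusted p under 0.05. Ccn3 at -3.39 lies farthest from 0, and none of the 26 collagens or 6 laminins is filled.

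The single genes, which were picked with earlier results of these data known, held 3 of the 6 calls and the largest difference of all members tested. Ccn3, a secreted CCN-family protein that acts on cell adhesion and proliferation, fell. Its signal was 4951, 5097 and 4479 on the NHE3+/+ arrays and 309, 628 and 416 on the NHE3-/- arrays. Every wild-type array was far above every NHE3-/- array, with no overlap. The means were 4842 ± 323 and 451 ± 162 (SD, n = 3 arrays each). The fitted log2 difference was -3.39 with a standard error of 0.20, which is 10.5-fold lower on the scale of log2(signal + 31.4) (limma, adjusted p = 5.48e-06). A second Ccn3 probe set gave -3.47 with the same adjusted p, from 3655 to 4445 in NHE3+/+ and 226 to 463 in NHE3-/-. Ccn3 kept its call in all 19 processing alternatives, with estimates from -3.64 to -3.16.

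Of the other 5 CCN genes, 4 lay under the filter, and the 1 tested, Ccn1, had a log2 fold change of 0.31 (adjusted p = 0.458). The summed signal of these 5 genes was 170 to 296 in NHE3+/+ and 369 to 425 in NHE3-/-, with no overlap and no test.

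Tgfbi, a secreted protein induced by TGF-beta that binds collagens and integrins, rose. Its signal was 690, 580 and 765 in NHE3+/+ and 1974, 1371 and 2244 in NHE3-/-. All NHE3-/- arrays were above all wild-type arrays, and replicate 2 was the lowest of its group in both genotypes. The means were 678 ± 92.8 and 1863 ± 447 (SD, n = 3 each), and the fitted difference was 1.40 log2 units with a standard error of 0.18, or 2.63-fold (limma, adjusted p = 0.000935). The 3 other Tgfbi probe sets rose as well, by 1.33, 1.48 and 0.79 log2 units. Tgfbi also kept its call in all 19 alternatives, between 1.25 and 1.70.

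Vim encodes vimentin, the intermediate filament of fibroblasts, endothelium and leukocytes, and is a marker of mesenchymal cells rather than a matrix protein. It fell. The NHE3+/+ arrays read 831, 1194 and 676 and the NHE3-/- arrays 462, 494 and 448. The NHE3-/- values were close together and all below the wild-type ones, which spread more and were highest in replicate 2. The log2 fold change was -0.86 ± 0.19 (SE), 1.82-fold lower (limma, adjusted p = 0.0163). The 2 other tested Vim probe sets had estimates of -0.51 and -0.56, neither past the threshold. The call was lost in 6 of 19 alternatives, among them without NHE3+/+ replicate 2 (-0.65, adjusted p = 0.0553) and without NHE3-/- replicate 3 (-0.83, adjusted p = 0.0507).

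Of 6 adipocyte markers 4 were tested, of which 3 were called lower and 1 higher. Summed over all 6, as every list sum here counts genes under the filter too, the signal was 1605 to 6088 in NHE3+/+, highest in replicate 2 as for Vim, and 766 to 1374 in NHE3-/-. Fibroblast markers had no call among the 9 tested, with sums of 7676 to 8774 in NHE3+/+ and 6928 to 11241 in NHE3-/-. Endothelial markers had none among 6, with sums of 834 to 1005 and 819 to 925. The part of fat tissue in the Vim difference was not tested.

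Fibronectin, the adhesive glycoprotein bound by integrins, read 454, 484 and 353 in NHE3+/+ and 257, 321 and 269 in NHE3-/-. The groups did not overlap, and the estimate of -0.55 (95% interval -0.96 to -0.15) missed the threshold with an adjusted p of 0.0780. Sparc, a collagen-binding matricellular protein, read 820, 1036 and 553 against 488, 733 and 602, overlapping groups with an estimate of -0.36. Elastin, the core of elastic fibres, had an estimate of -0.08.

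**Figure D2:**
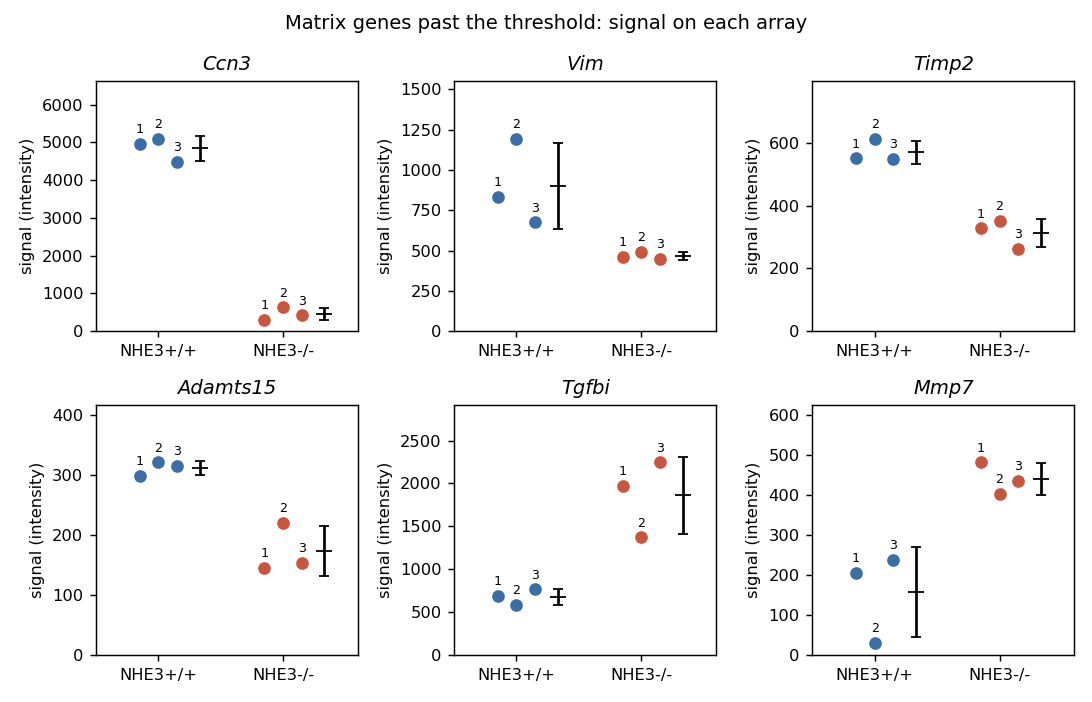
Deposited signal (linear intensity, vertical axis from 0) of the 6 matrix genes past the threshold on each array, NHE3+/+ on the left and NHE3-/- on the right of each panel; points are arrays and bars give the mean and SD of 3 arrays. Groups do not overlap in any panel, and NHE3+/+ replicate 2 of Mmp7, at 29.2, stands well under the other wild-type arrays.

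Among the proteases 7 Mmp and 7 Adamts genes were tested, of which 1 rose and 1 fell. Together 14.3% were called, near the 14.0% over all genes tested. Mmp7 (matrilysin), a small epithelial metalloproteinase that cuts matrix proteins and activates gut defensins, rose. Its signal was 205, 29.2 and 238 in NHE3+/+ and 482, 403 and 436 in NHE3-/-. The NHE3-/- arrays lay close together and above every wild-type array, while NHE3+/+ replicate 2 was far lower than the other wild-type arrays. The means were 157 ± 112 and 440 ± 39.8 (SD, n = 3 each), and the fitted log2 difference was 1.59 ± 0.45 (SE), or 3.00-fold (limma, adjusted p = 0.0466). Without that wild-type replicate the estimate was 0.90 and still called (adjusted p = 0.0275), and without NHE3-/- replicate 1, 2 or 3 it was 1.52, 1.64 and 1.59 and not called. In all, 9 of 19 alternatives ended the Mmp7 call.

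Mmp14, the membrane-bound collagenase that activates Mmp2, read 700, 755 and 596 in NHE3+/+ and 465, 539 and 502 in NHE3-/-. All NHE3-/- arrays were lower, yet the estimate of -0.42 ± 0.15 (SE) did not pass (adjusted p = 0.0966). Its 2 other probe sets tested had estimates of -0.58 and -1.01 and did not pass either, also with no overlap. Mmp2 (gelatinase A) had an estimate of 0.06, with a 95% interval of -0.41 to 0.53. Mmp9 (gelatinase B), a protease of neutrophils and macrophages, read 14.7, 57.2 and 143 in NHE3+/+ against 136, 127 and 131 in NHE3-/- (estimate 0.87, adjusted p = 0.215), so 1 wild-type array was as high as the NHE3-/- ones.

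Of 7 neutrophil markers only S100a8 and 1 other passed the filter. S100a8, a calcium-binding protein also made by stressed epithelium, rose, with signals of 41.2 to 59 in NHE3+/+ and 718 to 3034 in NHE3-/-. The other had a log2 fold change of -0.025 and was not called. Of 9 macrophage markers tested 1, Cd14, rose, with a median log2 fold change near 0 (0.0025), and the summed signal of all 11 listed overlapped, at 4314 to 7304 in NHE3+/+ and 5997 to 8652 in NHE3-/-. The part of these cells in the protease readings was not tested. Mmp8, the neutrophil collagenase, was under the filter at 10.5 to 22.4 in NHE3+/+ and 22.6 to 60.5 in NHE3-/-.

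The membrane-type and related enzymes Mmp16, Mmp17 and Mmp24 had estimates of 0.45, 0.34 and -0.70, all with overlapping arrays. The other 11 Mmp genes were under the filter, among them the stromelysins Mmp3 and Mmp10, the macrophage elastase Mmp12 and the collagenase Mmp13.

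Adamts15, a protease that cuts the proteoglycans aggrecan and versican, fell. It read 297, 320 and 315 in NHE3+/+ and 145, 220 and 154 in NHE3-/-. The wild-type arrays were close together and all above the NHE3-/- arrays, of which replicate 2 was the highest. The log2 fold change was -0.76 ± 0.21 (SE), 1.70-fold lower (limma, adjusted p = 0.0382). The call was lost in 12 of 19 alternatives, which include both other scalings and every omission of a single array except that of NHE3-/- replicate 2. Adamts10 had a larger but more scattered estimate of -1.12 (95% interval -2.13 to -0.10, adjusted p = 0.145). Adamts1, Adamts3, Adamts8, Adamts9 and Adamts16 ranged from -0.36 to 0.59 with overlapping arrays.

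Of the 4 protease inhibitors, Timp2 fell. Timp2 blocks metalloproteinases and, bound to Mmp14, also takes part in activating Mmp2. It read 550, 612 and 548 in NHE3+/+ and 327, 350 and 261 in NHE3-/-, with a clear gap between the groups. The means were 570 ± 36.6 and 313 ± 46.0 (SD, n = 3 each). The fitted log2 difference was -0.81 ± 0.17 (SE), or 1.76-fold lower (limma, adjusted p = 0.0107). The probe sets of Timp2 gave different sizes. The 3 others tested had estimates of -0.68, -0.30 and -0.15 and did not pass, and with all 4 averaged the estimate was -0.49 (adjusted p = 0.141), the only alternative of 19 that ended the call.

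Timp1, an inhibitor often raised in inflamed tissue, had an estimate of -0.14 (95% interval -0.85 to 0.58). Timp3, which binds to the matrix itself, had -0.25. Timp4 read 46.8, 94.9 and 89.3 in NHE3+/+ and 128, 101 and 153 in NHE3-/-, higher on every NHE3-/- array but with an adjusted p of 0.245.

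**Figure D3:**
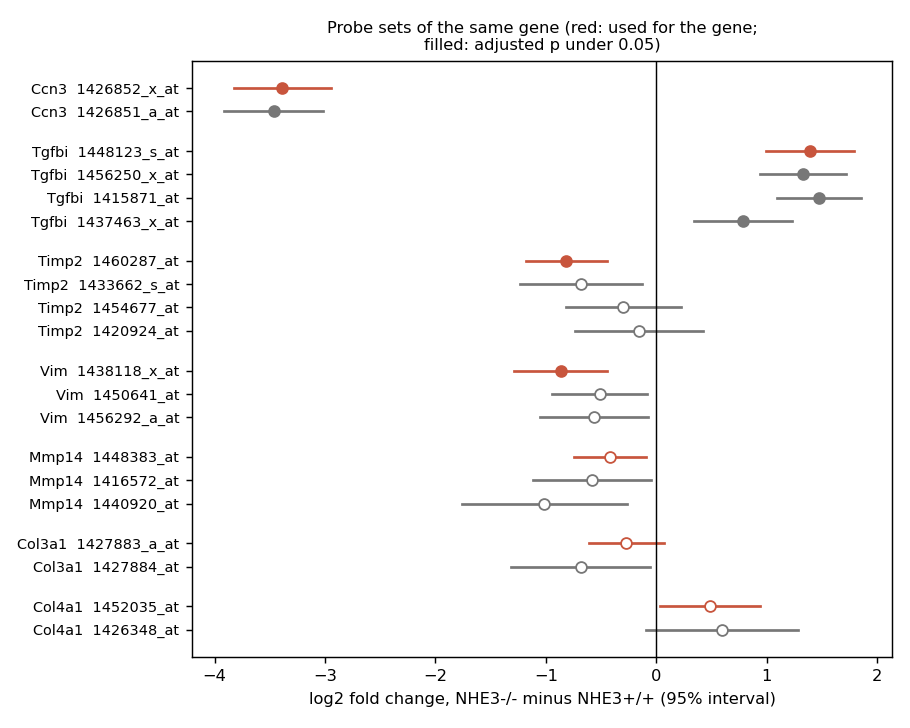
Log2 fold change with 95% interval (horizontal axis) for each tested probe set of 7 matrix genes; red marks the probe set used for the gene and filled points have an adjusted p under 0.05. The probe sets of Ccn3 and Tgfbi are all filled, whereas for Timp2 and Vim only the red one is, and the estimates of one gene's probe sets share a sign in all 7 genes. This does not hold for every member, since those of Col1a1 and Col1a2, not drawn here, differ in sign.

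RefSeq promoter windows of build GRCm38.p6, from 250 bases before to 50 after the start, were matched for 64 of the 95 genes, in 71 windows. They are shown for the 4 called genes that have one, because these genes moved and differ in promoter build. Capitals mark matches on either strand to 4 motifs, so a match may be printed as its reverse complement. The AP-1 motif searched was TGANTCA. The box bound by NF-Y was searched as CCAAT and the core promoter box as TATAAA. The motif bound by Sp1 was searched as GGGCGG. Tgfbi lies at chr13:56609336-56609635 (plus strand), Timp2 at chr11:118355362-118355661 (minus), the first Mmp7 window at chr9:7691840-7692139 (plus) and Vim at chr2:13574061-13574360 (plus).
Tgfbi: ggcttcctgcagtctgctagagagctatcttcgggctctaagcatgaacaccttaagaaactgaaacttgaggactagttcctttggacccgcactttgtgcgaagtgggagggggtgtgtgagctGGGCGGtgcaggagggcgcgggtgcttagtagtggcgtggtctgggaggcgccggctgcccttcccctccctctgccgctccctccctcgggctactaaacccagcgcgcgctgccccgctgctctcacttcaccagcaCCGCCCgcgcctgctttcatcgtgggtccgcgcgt
Timp2: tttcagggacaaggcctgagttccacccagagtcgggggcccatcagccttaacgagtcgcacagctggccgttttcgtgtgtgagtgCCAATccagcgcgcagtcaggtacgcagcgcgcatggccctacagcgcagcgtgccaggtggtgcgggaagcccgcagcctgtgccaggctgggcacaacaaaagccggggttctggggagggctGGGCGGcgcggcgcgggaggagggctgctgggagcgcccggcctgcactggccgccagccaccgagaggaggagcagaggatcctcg
Mmp7: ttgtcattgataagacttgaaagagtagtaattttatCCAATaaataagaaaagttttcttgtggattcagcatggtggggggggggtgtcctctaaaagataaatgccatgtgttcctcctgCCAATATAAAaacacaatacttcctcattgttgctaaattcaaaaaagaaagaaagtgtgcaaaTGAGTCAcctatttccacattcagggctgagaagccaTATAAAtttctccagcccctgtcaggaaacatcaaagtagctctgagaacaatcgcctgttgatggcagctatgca
Vim: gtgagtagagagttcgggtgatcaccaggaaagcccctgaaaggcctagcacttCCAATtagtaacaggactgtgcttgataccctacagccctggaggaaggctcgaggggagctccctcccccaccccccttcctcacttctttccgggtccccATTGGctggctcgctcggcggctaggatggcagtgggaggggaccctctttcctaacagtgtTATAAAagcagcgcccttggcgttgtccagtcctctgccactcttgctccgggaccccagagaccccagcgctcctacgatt
The first Mmp7 window holds 1 AP-1 match, whose first base lies at -63 from the start. It also holds 2 TATAAA matches, 1 of which overlaps a CCAAT match, and no GGGCGG. A second Mmp7 window, at chr9:7692091-7692390 (plus), is not shown and holds 1 CCAAT match and no AP-1, TATAAA or GGGCGG. The Tgfbi window has 2 GGGCGG matches and neither TATAAA nor CCAAT; the Timp2 window has 1 GGGCGG and 1 CCAAT; the Vim window has 1 TATAAA and 2 CCAAT matches. Among all 32851 windows of the table, 7.81% hold an AP-1 match, 37.4% CCAAT, 13.6% TATAAA and 35.7% GGGCGG; among the 71 windows of matrix genes the shares are 12.7%, 32.4%, 22.5% and 53.5%. These are letter matches, with no test of binding.

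Collagen chains showed no call. Of 42 chains 26 were tested, none was past the threshold, and 3 had an unadjusted p under 0.05, with a lowest adjusted p of 0.154 (limma). Their median was -0.08, beside -0.07 over all genes, and turned to 0.01 with medians set equal and 0.06 with quantile normalization, so no common direction held across scalings.

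For the main fibrillar chains the estimates were small. Col1a1, a chain of type I collagen, read 236, 188 and 216 in NHE3+/+ and 226, 260 and 199 in NHE3-/-, an estimate of 0.08 with a 95% interval of -0.36 to 0.53. Its partner chain Col1a2 had 0.08, with an interval of -0.23 to 0.39. A second tested probe set went the other way for both, at -0.13 for Col1a1 and -0.09 for Col1a2. Col3a1, the chain of type III collagen in compliant tissue, read 2254, 1872 and 1624 against 1366, 1890 and 1500, overlapping groups with an estimate of -0.27 (interval -0.61 to 0.07). A second Col3a1 probe set had -0.68 (adjusted p = 0.150). The type V chains that set fibril width had estimates of -0.25 for Col5a1, -0.10 for Col5a2 and -0.28 for Col5a3. Col27a1, the seventh fibrillar chain tested, had 0.04.

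None of the 4 type VI chains tested passed. Their estimates were -0.30 for Col6a1, -0.20 for Col6a2, -0.08 for Col6a3 and -0.58 for Col6a4. The sign was not stable, since a second Col6a2 probe set had 0.17, and the estimates of Col6a2 and Col6a3 reached 0.18 and 0.10 under processing alternatives. Col6a1 read 433, 536 and 378 in NHE3+/+ and 377, 420 and 282 in NHE3-/-, so the groups overlapped.

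Type IV collagen, the sheet-forming collagen of basement membranes, is assembled mainly from Col4a1 and Col4a2. Col4a1 read 516, 492 and 444 in NHE3+/+ and 571, 576 and 998 in NHE3-/-, and Col4a2 read 236, 284 and 241 against 288, 293 and 473. In both genes all NHE3-/- arrays were higher, most of all replicate 3, and the estimates of 0.49 and 0.40 had adjusted p of 0.154 and 0.263. Without NHE3-/- replicate 3, the Col4a1 estimate was 0.23. With that replicate as the only NHE3-/- array, whose spread is then assumed to be that of the wild-type arrays, it was 1.00. With log2 Xist signal as a covariate it was 1.03 (limma, adjusted p = 0.0163). Xist was high only on NHE3-/- replicates 1 and 2, so with this covariate the genotype estimate rests mostly on replicate 3. These settings are therefore not separate support. Replicate 3 also had the lowest summed signal over the 10 smooth muscle markers, 2455 against 3179 to 4135 on the other arrays, and the highest fibroblast sum. The part of these cells in the type IV values was not tested. Col4a5 and Col4a6 had -0.06 and 0.07.

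Col4a1 and Col4a2 lie head to head, which is why both promoter windows are given, with the motifs marked as above. In GRCm38.p6 their starts are 21 bases apart and the windows share 78 bases, read on opposite strands. The windows are chr8:11312777-11313076 on the minus strand for Col4a1 and chr8:11312555-11312854 on the plus strand for Col4a2.
Col4a1: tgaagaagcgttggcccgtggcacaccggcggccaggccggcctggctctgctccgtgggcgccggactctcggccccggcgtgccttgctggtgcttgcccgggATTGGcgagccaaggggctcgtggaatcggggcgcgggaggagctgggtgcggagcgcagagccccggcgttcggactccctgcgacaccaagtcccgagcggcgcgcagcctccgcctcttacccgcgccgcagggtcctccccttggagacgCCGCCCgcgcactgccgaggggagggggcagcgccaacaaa
Col4a2: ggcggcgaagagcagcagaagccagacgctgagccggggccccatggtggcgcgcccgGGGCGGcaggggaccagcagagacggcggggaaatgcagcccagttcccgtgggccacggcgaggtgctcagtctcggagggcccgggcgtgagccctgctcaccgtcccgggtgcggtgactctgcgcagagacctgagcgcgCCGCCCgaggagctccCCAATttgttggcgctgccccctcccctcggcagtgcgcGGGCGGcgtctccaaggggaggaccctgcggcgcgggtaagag
Each holds 1 CCAAT match and no TATAAA, with 1 GGGCGG match in the Col4a1 window and 3 in that of Col4a2.

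Among the other collagens, Col18a1, a basement membrane collagen whose end fragment is endostatin, read 172, 133 and 135 in NHE3+/+ and 199, 177 and 250 in NHE3-/-. These groups did not overlap, and the estimate was 0.43 (adjusted p = 0.246). Col7a1, which forms anchoring fibrils, had -0.82 with arrays that overlapped (adjusted p = 0.174). Col20a1, of the fibril-associated class, read 237, 224 and 356 against 197, 116 and 195, with no overlap and an estimate of -0.60 (adjusted p = 0.154). The other 5 fibril-associated chains tested lay between -0.37 and 0.02.

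**Figure D4:**
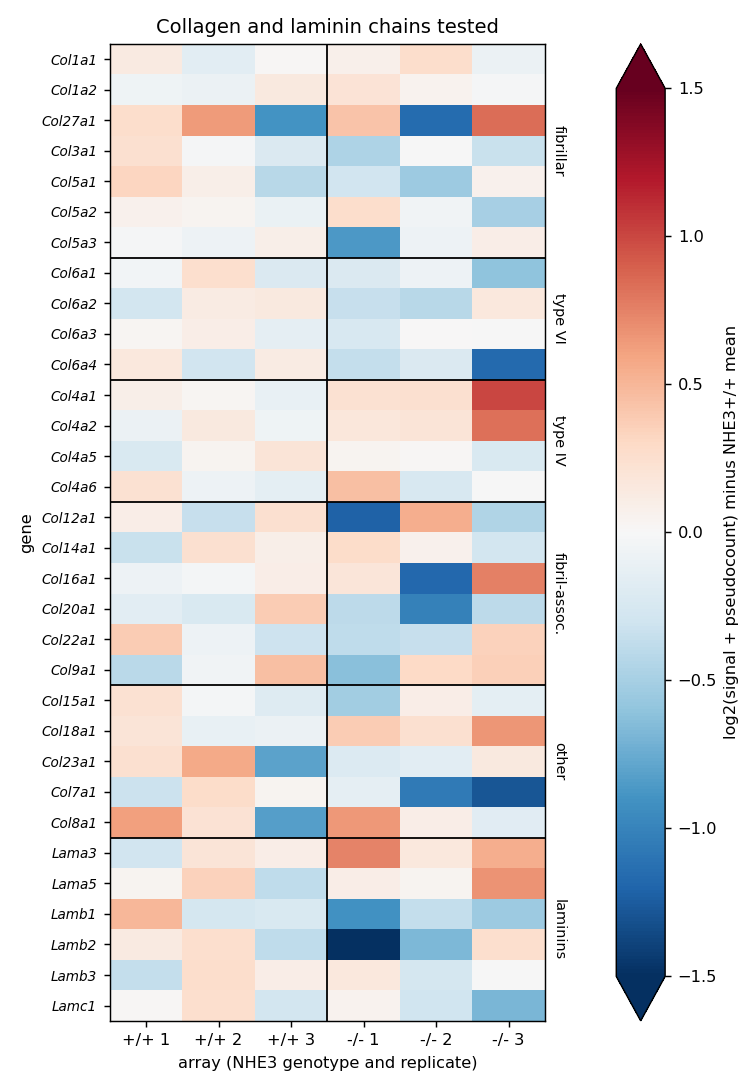
Heat map of the 26 collagen and 6 laminin chains tested (rows, by class) on the 6 arrays (columns); colour is log2(signal + 31.4) minus the mean of the 3 NHE3+/+ arrays. Col4a1 and Col4a2 are reddest on NHE3-/- replicate 3, and the Lamb2 and Lamb1 rows are bluest on NHE3-/- replicate 1.

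Laminins, the cross-shaped trimers of the basement membrane, had 6 of 10 chains tested and none called, with a median of -0.17 and a lowest adjusted p of 0.0939. Lama3, a chain of the laminin under epithelium to which hemidesmosomes attach, read 1145, 1601 and 1503 in NHE3+/+ and 2373, 1572 and 2055 in NHE3-/-. NHE3-/- replicate 2 lay among the wild-type arrays and the other NHE3-/- arrays above them. The estimate was 0.48 ± 0.17 (SE), and it passed with medians set equal (0.60, adjusted p = 0.0488) and without NHE3-/- replicate 2 (0.64, adjusted p = 0.0403). Lamb3, its partner chain in that trimer, read 3036, 4689 and 4178 against 4375, 3236 and 3887, an estimate of -0.04 with a 95% interval of -0.40 to 0.32.

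The chains of the more widely found laminins had estimates of 0.27 for Lama5, -0.60 for Lamb1, -0.78 for Lamb2 and -0.31 for Lamc1. Lamb2 read 164, 180 and 105 in NHE3+/+ and 15.4, 79.9 and 181 in NHE3-/-, overlapping groups. Its sign was not stable, with estimates from -1.30 to 0.36 under the processing alternatives. Lamb1 read 464, 259 and 266 in NHE3+/+ and 155, 242 and 207 in NHE3-/-, with every NHE3-/- array lower and an adjusted p of 0.149.

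The remaining 39 members were under the filter, 16 collagens, 4 laminins, 11 Mmp and 8 Adamts genes, with signals from 0.7 to 180.7. Without a filter none of them was called; 2 had an unadjusted p under 0.05, and the lowest adjusted p was 0.0713 (limma). With a pseudocount of 100 in place of 31.4, Adamts18 passed the filter and was called lower (-0.88, adjusted p = 0.0374). Of these 39 genes 3 had groups that did not overlap, which is under the share of 36.8% over all genes tested. Adamts18 read 92, 107 and 181 in NHE3+/+ and 66.3, 3.1 and 5.1 in NHE3-/-, and Adamts19 and Mmp8 were higher on every NHE3-/- array. Both were dim, with Adamts19 at 2.3 to 5.9 in NHE3+/+ and 9 to 31.5 in NHE3-/-. 

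Genes that make and export collagen were listed apart from the members. Of 18 tested none rose and 2 fell (11.1%, against 14.0% called over all genes tested). The alternative that averages all probe sets of a gene did so for members only. It therefore left the probe set of every gene in this and the following lists unchanged. Mia3, which loads procollagen into vesicles leaving the endoplasmic reticulum, read 5066, 4357 and 5055 in NHE3+/+ and 3083, 3135 and 2904 in NHE3-/- (log2 fold change -0.66, adjusted p = 0.00297, called in all 19 alternatives). Crtap, part of the complex that modifies procollagen prolines, fell by 0.65 (adjusted p = 0.0306). The Crtap call was lost in 10 of 19 alternatives, among them both other scalings and every omission of 1 array except NHE3-/- replicate 2. The collagen chaperone Serpinh1 had an estimate of 0.03, and the prolyl hydroxylase alpha subunits P4ha1 and P4ha2 had 0.39 and -0.12.

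Matrix receptors held the most calls of these lists, 6 lower and none higher of 21 tested (28.6%), with a median of -0.32, against 14.0% called, 7.55% lower and a median of -0.07 over all genes tested. Cd44, the hyaluronan receptor, read 2191, 1743 and 2221 in NHE3+/+ and 698, 809 and 517 in NHE3-/-, 2.98-fold lower with no overlap (log2 fold change -1.57, adjusted p = 0.000258). The syndecans Sdc4 and Sdc2, cell-surface heparan sulfate proteoglycans, fell by 1.24 and 1.15 log2 units. Itga5, the fibronectin receptor subunit, fell by 0.98, and the others called were Sdc1 and the laminin receptor subunit Itga7. The calls of Itga5, Sdc1 and Itga7 were lost in 9, 10 and 12 of 19 alternatives, and those of Sdc4 and Sdc2 in 3 each. The count lower was 1 (Cd44) without a mean-variance trend, 2 with NHE3-/- replicate 3 as the only NHE3-/- array or with the Xist covariate, 2 without NHE3+/+ replicate 2, and 3 without NHE3+/+ replicate 3 or NHE3-/- replicate 2. With medians set equal, with the replicate block, and without NHE3-/- replicate 2 or 3, 1 receptor was called higher. Cd44 kept its call in all 19 alternatives, of which the probe set average did not act on it.

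Of the TGF-beta pathway, which induces many matrix genes, 16 genes were tested, 2 rose and 1 fell (18.8%, against 14.0% over all genes). The signal-carrying Smad2 and Smad4 rose by 0.63 and 0.59 log2 units (adjusted p = 0.0101 and 0.00736), and the receptor Tgfbr1 fell by 0.52 (adjusted p = 0.0279). The Tgfbr1 call was lost in 11 of 19 alternatives, among them both other scalings and every omission of 1 array except NHE3-/- replicate 1. The Smad2 and Smad4 calls were lost in 3 each, without a mean-variance trend, with NHE3-/- replicate 3 as the only NHE3-/- array and with the Xist covariate. The ligand Tgfb1 read 237, 376 and 281 against 231, 152 and 180, an estimate of -0.58 that did not pass (adjusted p = 0.126).

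Of a mixed list of other proteases, ADAMTS-like proteins and protease regulators, 16 were tested and 2 rose (12.5%, against 14.0% called over all genes tested). Adamtsl4, an ADAMTS-like protein without a protease domain, rose by 1.05 log2 units (adjusted p = 0.0156), and Mep1b, the meprin beta metalloproteinase of the intestinal brush border, rose by 0.58 (adjusted p = 0.00419). These calls were lost in 5 and 4 of 19 alternatives, that of Adamtsl4 also without NHE3+/+ replicate 2 or NHE3-/- replicate 1. Of other basement membrane genes, 1 of 10 fell (10.0%, also under the share over all genes), Smoc2 by 1.08 (limma, adjusted p = 0.0425). The Smoc2 call was lost in 9 of 19 alternatives, among them both other scalings and every omission of 1 array except NHE3-/- replicate 2. None of 14 genes listed as proteoglycans and other matrix glycoproteins, and none of 5 elastic fibre genes, was called. Of these, 2 and 1 had an unadjusted p under 0.05 (limma).

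**Figure D5:**
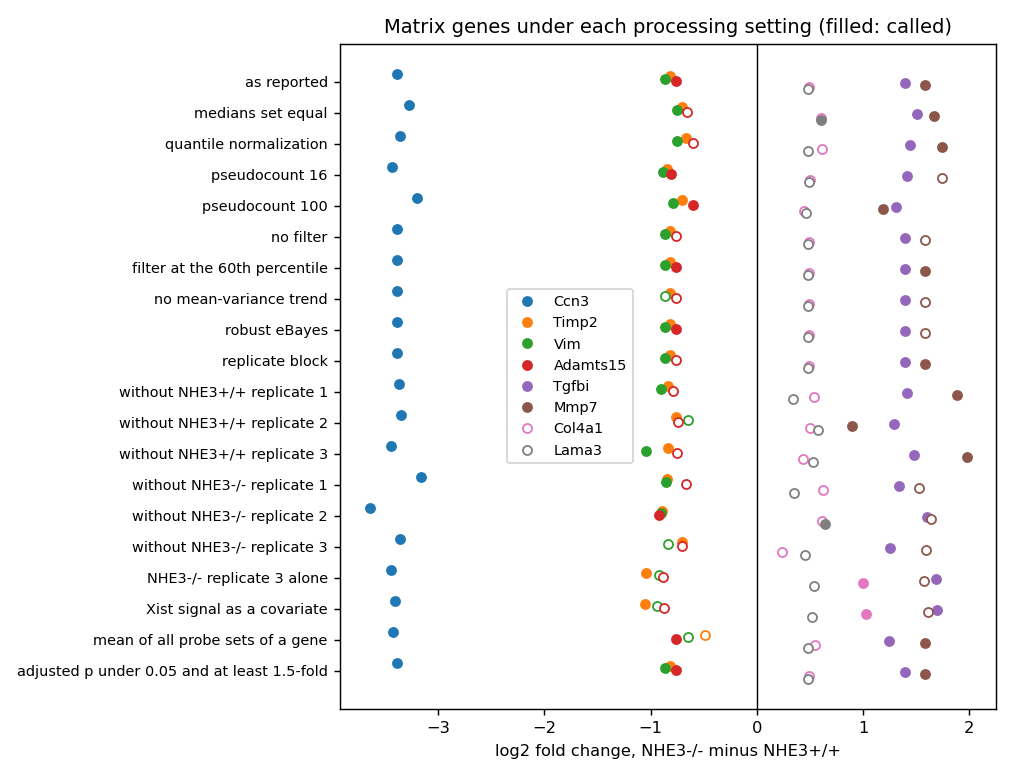
Log2 fold change (horizontal axis) of 8 matrix genes under the reported settings and 19 alternatives (rows); filled points are called. Ccn3 and Tgfbi are filled in every row, Adamts15 is open in 12 rows, and Mmp7 falls to 0.90 without NHE3+/+ replicate 2.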

How the data were processed

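The deposited values were intensity signals on a linear scale, 1 per probe set and array, scaled by the authors; the submitters' processing notes name GCOS, with no version, and no source used here gives its settings. Depth does not apply to arrays; 3 arrays per group limit the precision. From the 45101 probe sets, 64 array controls were left out, log2(signal + 31.4) was taken (31.4 is the 25th percentile of all values), probe sets whose mean on that scale fell below the 40th percentile were left untested, and NHE3-/- was compared with NHE3+/+ by limma 3.58.1 in R 4.3.3 (lmFit, eBayes with trend, genotype only), a model fitted across all probe sets and tested on simulated data. P-values were adjusted by Benjamini-Hochberg over 27024 probe sets, with a threshold of 0.05. Standard errors and 95% intervals are those of the fit.

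Named genes were every member past the threshold, a few per family, and up to 4 called genes per companion list; other genes were named after their values were seen. Members and lists were chosen with earlier results of these data known. The 19 alternatives changed scaling, pseudocount, filter, variance model, probe set choice (members only), call rule or arrays used. Promoters came from RefSeq.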

Additional observations from a re-analysis of the deposited data

How the results depend on the processing

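Over 1030 values of matrix genes in 19 alternatives none reversed a call, Ccn3 and Tgfbi kept every call, and 48 genes not called were never called. Without a mean-variance trend 511 probe sets were higher and 558 lower, with 1 matrix gene higher, 2 lower, and 0 Mmp higher, 0 Adamts lower and 1 single gene lower. With medians set equal 738 probe sets were lower, 0 Adamts lower and 1 laminin higher; with quantile normalization 0 Adamts were lower. With a pseudocount of 16, with no filter and with robust eBayes, 1 matrix gene and 0 Mmp were higher, and with no filter 0 Adamts were lower; a pseudocount of 100 gave 2 Adamts lower, the second being Adamts18, which passed the filter there. With NHE3-/- replicate 3 as the only NHE3-/- array (767 probe sets higher) and with Xist signal as a covariate, 2 matrix genes, 0 Adamts and 1 single gene were lower, 1 collagen (Col4a1) was higher and 0 Mmp were higher. With the mean of all probe sets of a gene, 2 matrix genes, 1 single gene and 0 Timp were lower. The Xist covariate and the use of NHE3-/- replicate 3 alone both rest mostly on that replicate, so they are not separate alternatives. The cause was not tested for any of these. Leaving out 1 array gave 839 to 1211 probe sets higher and 775 to 1385 lower, 1 to 2 matrix genes higher (1 without NHE3-/- replicate 1 or 3) and 2 to 4 lower (2 without NHE3+/+ replicate 2 or NHE3-/- replicate 3), 0 to 1 Adamts lower, 1 to 2 single genes lower, 0 to 1 laminins higher and 0 to 1 Mmp higher. The replicate labels state no pairing of same-numbered arrays. Deviations of same-numbered arrays correlated at 0.026, -0.038 and 0.0034, beside -0.054 to 0.05 for the 6 other pairs. With 3 arrays per group these values cannot exclude a pairing. With the replicate block 0 Adamts were lower, with no other matrix call lost. Dim genes are limited by signal: all 39 under the filter read at most 180.7.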
